A study of Mus musculus with 8 samples.

Results

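Interferon response genes are the genes that cells switch on when interferons, the signalling proteins of antiviral and inflammatory defence, bind their receptors. The 43 genes described here were taken by symbol from counts measured in mouse dorsal root ganglia, where the cell bodies of sensory neurons lie. All 43 of 43 symbols were found among the 25780 genes in the files, and all 43 were among the 20235 genes that passed the filter on low counts, although Gbp10, Gbp8 and Ubd held few reads outside the WT vehicle group. The 4 groups had 2 libraries each. The iKO CFA group came from Ehmt2 (G9a) inducible conditional knockout mice, genotype Avil-iCreERT2 with G9a flox/flox, treated in the left paw with CFA, complete Freund's adjuvant, which produces lasting inflammation. The iKO vehicle group had the same genotype and received vehicle. The WT CFA group and the WT vehicle group were littermates without Cre that received CFA or vehicle, and the labels do not say whether their G9a alleles were floxed. In all 4 groups the ganglia were collected 14 days after the injection. Ehmt2 encodes a histone methyltransferase, and Avil drives the Cre in sensory neurons, so the other cells of the ganglion were not the target of the deletion. Age, sex, dose, the side of the ganglia and whether ganglia of several mice were pooled were not stated, nor was it stated that the 2 libraries of a group came from separate mice, so each p-value reflects only how far these libraries spread, which may be technical.

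Type I interferons act through the receptor subunits Ifnar1 and Ifnar2 and a factor complex that includes Stat2 and Irf9, which binds the interferon-stimulated response element of genes such as Ifit1, Oas and Mx family members and Isg15. Interferon gamma acts through Ifngr1 and Ifngr2 and on genes with a gamma-activated site, for example Irf1, and it is the stronger inducer of guanylate-binding proteins, immunity-related GTPases and the antigen processing genes. In a ganglion these genes can be expressed by neurons, by glia, by resident macrophages and by immune cells that enter, and reads from whole tissue do not separate these sources. In such bulk samples fewer cells of a type and less RNA per cell cannot be told apart.

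Promoters were searched for both elements, because these are the letters that the 2 interferon pathways are known to read. A promoter window of 300 bases, from 250 before to 50 after the transcription start, was available in the RefSeq promoter table (assembly GRCm38.p6, not the build the reads were aligned to) for 32 of the 43 genes. The core GAAANNGAA of the interferon-stimulated response element, on either strand, was in the windows of 18 of 32 genes (56.2%), against 9.76% of the 27025 gene symbols in the table and 8.56% of its 32851 windows. The gamma-activated site TTCNNNGAA, which reads the same on both strands, was in the windows of 12 of 32 genes (37.5%), against 9.55% of gene symbols and 8.3% of windows. Both were found for 6 genes and neither for 8. In 1 window, that of Bst2, a match of one overlapped a match of the other. A match describes letters in this window and does not mark a bound site. Windows are shown for 4 genes whose response to CFA differed between genotypes, Gbp2, Igtp, Irf1 and Irf8, and for 2 for which no difference passed the test, Ifit1 and Isg15, as examples of the arrangements found. Capitals mark the matches, and each sequence reads 5′ to 3′ on the strand of its gene.
Gbp2: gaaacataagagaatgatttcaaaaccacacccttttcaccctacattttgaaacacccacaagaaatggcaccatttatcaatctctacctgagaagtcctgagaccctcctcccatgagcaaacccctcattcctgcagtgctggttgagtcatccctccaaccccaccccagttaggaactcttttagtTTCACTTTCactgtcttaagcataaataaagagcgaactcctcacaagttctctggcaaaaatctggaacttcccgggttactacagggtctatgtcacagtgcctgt
Igtp: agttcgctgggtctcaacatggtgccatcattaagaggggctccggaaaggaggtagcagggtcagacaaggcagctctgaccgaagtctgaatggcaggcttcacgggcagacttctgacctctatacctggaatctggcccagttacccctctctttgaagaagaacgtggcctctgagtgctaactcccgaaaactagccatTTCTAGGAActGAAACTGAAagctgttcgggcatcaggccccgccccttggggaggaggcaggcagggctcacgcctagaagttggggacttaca
Irf1: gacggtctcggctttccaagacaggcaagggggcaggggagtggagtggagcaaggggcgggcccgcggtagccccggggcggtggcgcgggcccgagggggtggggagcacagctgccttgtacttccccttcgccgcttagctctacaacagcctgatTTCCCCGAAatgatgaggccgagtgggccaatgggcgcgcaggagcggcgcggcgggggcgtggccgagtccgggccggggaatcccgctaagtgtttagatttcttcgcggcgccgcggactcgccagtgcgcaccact
Irf8: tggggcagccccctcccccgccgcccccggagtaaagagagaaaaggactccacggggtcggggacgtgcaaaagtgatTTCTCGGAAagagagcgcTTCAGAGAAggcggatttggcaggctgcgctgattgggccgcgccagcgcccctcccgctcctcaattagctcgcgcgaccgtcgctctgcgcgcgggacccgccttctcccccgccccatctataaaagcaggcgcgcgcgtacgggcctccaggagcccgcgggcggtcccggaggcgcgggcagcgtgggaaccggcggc
Ifit1: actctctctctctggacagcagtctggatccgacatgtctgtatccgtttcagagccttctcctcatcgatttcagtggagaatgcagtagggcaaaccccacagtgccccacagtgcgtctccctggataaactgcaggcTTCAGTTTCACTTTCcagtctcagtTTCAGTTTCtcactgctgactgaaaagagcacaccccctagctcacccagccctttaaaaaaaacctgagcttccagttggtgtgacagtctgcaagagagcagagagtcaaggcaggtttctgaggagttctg
Isg15: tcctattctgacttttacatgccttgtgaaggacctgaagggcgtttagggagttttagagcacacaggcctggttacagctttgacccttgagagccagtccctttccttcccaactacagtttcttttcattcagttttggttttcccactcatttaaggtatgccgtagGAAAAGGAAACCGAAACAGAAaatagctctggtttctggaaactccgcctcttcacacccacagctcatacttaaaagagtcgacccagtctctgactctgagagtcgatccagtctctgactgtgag
The windows lie at chr3:142620413-142620712 on the plus strand for Gbp2, chr11:58199306-58199605 plus for Igtp, chr11:53769764-53770063 plus for Irf1 (the first of 2 windows), chr8:120736108-120736407 plus for Irf8 (the first of 2), chr19:34640639-34640938 plus for Ifit1 and chr4:156200769-156201068 minus for Isg15. Gbp2 held 1 response element core, 58 bases before the start (-58). Igtp held 1 gamma-activated site at -45 and 1 response element core at -34. Irf1 held 1 gamma-activated site, at -90, and Irf8 held 2. Ifit1 and Isg15 each held 3 response element cores and no gamma-activated site. Among the 14 genes with a window whose CFA response differed between genotypes by the test given below, 7 held the response element core and 7 the gamma-activated site. Among the 18 others with a window, 11 held the core and 5 the gamma-activated site (Ifit2, Oas1a, Ifi35, Isg20 and Bst2). Tap1, Psmb9, Ubd and Xaf1, whose responses differed, held neither element. Oasl1, Oasl2, Irf7 and Irf9, for which no difference passed, held neither as well. The windows shown thus do not stand for either set, and the counts were not tested against each other.

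The deposited libraries held 26312614 to 42971823 reads assigned to genes. Levels are given as CPM, the reads of a gene relative to the reads of its library after TMM scaling. Ehmt2 itself held 44.95 and 44.2 CPM in iKO CFA ganglia and 34.0 and 31.6 CPM in iKO vehicle ganglia, against 74.2 and 61.3 CPM in WT CFA ganglia and 74.4 and 65.4 CPM in WT vehicle ganglia. Every iKO library was below every WT library. The difference passed the test under vehicle (log2 fold change -1.09 ± 0.18, SE, adjusted p = 0.00655) and not under CFA (-0.60 ± 0.18, adjusted p = 0.154). Markers fixed for sensory neurons were high in all 8 libraries, with sums of 6949 to 15200 CPM over 8 genes. The WT vehicle libraries stood apart in immune markers. The 6 B and plasma cell markers summed to 2097 and 853 CPM there and to 2.64 to 45.3 CPM in the other 6 libraries, and the 7 T cell markers to 65.4 and 52.7 CPM there and to 1.20 to 9.40 CPM elsewhere. WT vehicle library 1 also held 143 CPM of 4 skeletal muscle markers, against at most 1.64 CPM in any other library. Every comparison that has the WT vehicle group as an arm rests on these 2 libraries and could not be fitted with both left out.

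The 43 genes were most abundant in WT vehicle ganglia, lowest in iKO vehicle and WT CFA ganglia, and intermediate in iKO CFA ganglia. Together they took 0.149% and 0.181% of the reads in the iKO CFA libraries and 0.112% and 0.0611% in the iKO vehicle libraries, against 0.0838% and 0.121% in the WT CFA libraries and 0.264% and 0.254% in the WT vehicle libraries. By group mean, 30 of the 43 were highest in WT vehicle ganglia and 13 in iKO CFA ganglia. The lowest group was iKO vehicle for 27 genes, WT CFA for 13, iKO CFA for 2 and WT vehicle for 1. The 2 libraries of a group were not always alike in these genes. In the iKO vehicle group 41 of 43 were lower in library 2 than in library 1, with a median log2 difference of -1.21, while the median absolute difference of all genes tested was 0.171. In the WT CFA group 36 of 43 were higher in library 2, with a median of 0.95, beside a median absolute difference of 0.595 over all genes. The iKO CFA libraries differed by a median of 0.281, with library 2 higher for 38 genes, beside an absolute 0.205 over all genes. The medians of the 43 keep their sign and those of all genes do not, so the sizes are not alike in measure. In the WT vehicle group the median was 0.114, beside an absolute 0.285, and the families went opposite ways. All 9 guanylate-binding proteins, all 4 immunity-related GTPases and all 3 antigen processing genes were higher in library 1, and all 4 IFIT genes, all 5 of the OAS family and both Mx genes were higher in library 2.

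**Figure D1:**
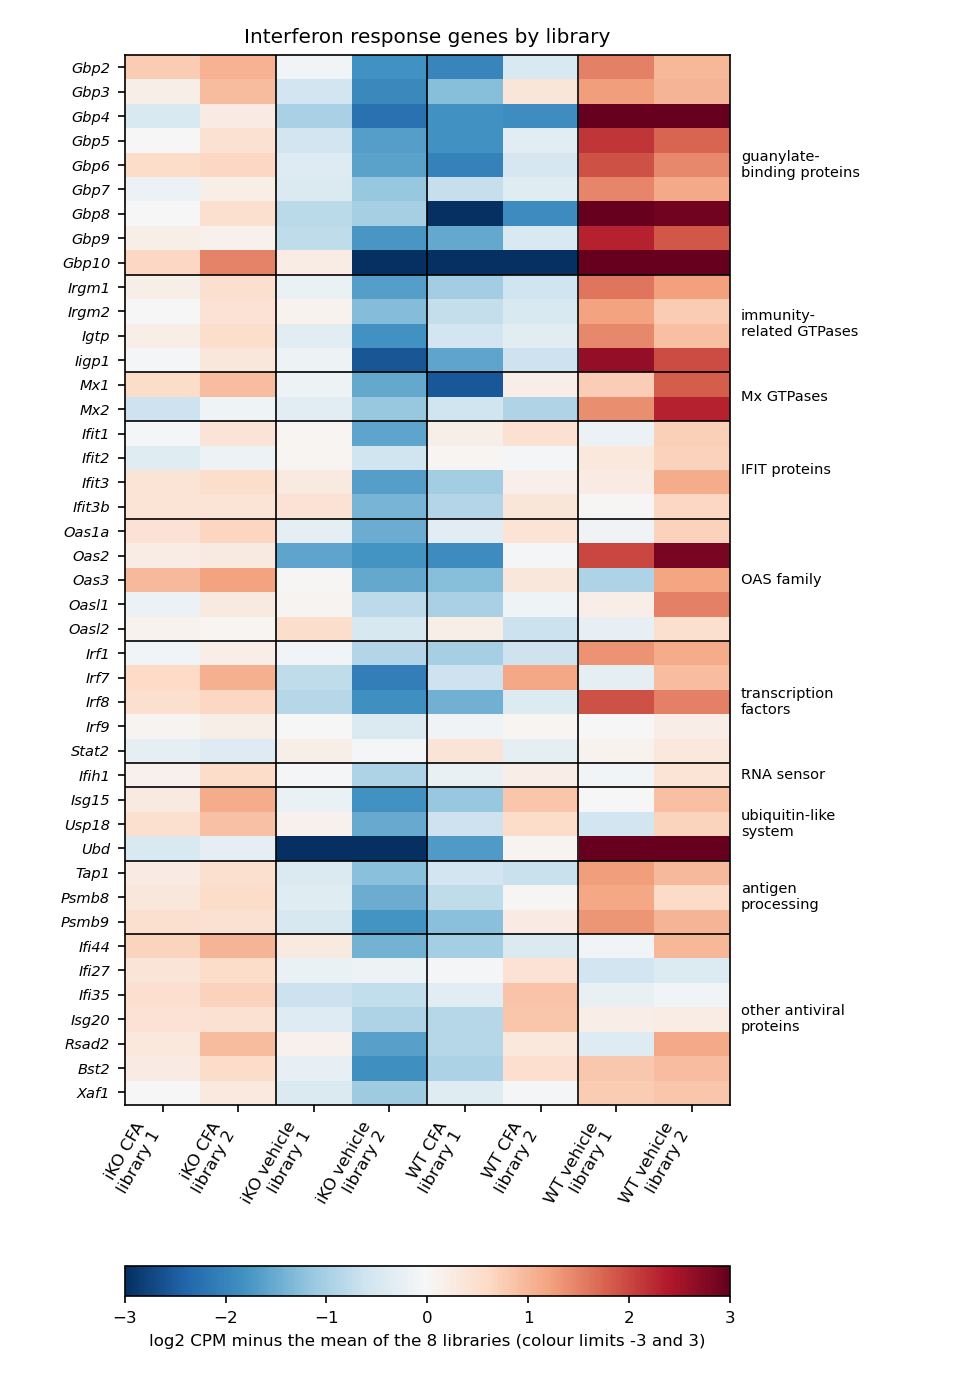
Colour shows the log2 CPM of each of the 43 genes in each of the 8 libraries, minus the gene's mean over the 8 libraries, with rows grouped by role and red for higher. The 2 WT vehicle columns are red for guanylate-binding proteins and immunity-related GTPases, the column of iKO vehicle library 2 is blue for most rows, and the IFIT rows are pale in most columns.

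In iKO ganglia the 43 genes lay mostly above vehicle after CFA, but no call passed. The log2 fold change was positive for 40 of 43, with a median of 1.21 beside -0.0012 over all genes tested. By edgeR's quasi-likelihood test with Benjamini-Hochberg adjustment over all genes, 0 of 43 passed 0.05 in either direction, where 0.0395% of all genes tested were called higher and 0% lower. At an unadjusted p under 0.05 there were 23 of 43, beside 5791 of 20235 genes, and DESeq2 called 18 of the 43 higher and 0 lower, and 3364 genes in either direction. The smallest adjusted p among the 43 was 0.0943, shared by Irf8 (1.83 ± 0.41), Tap1 (1.15 ± 0.27) and Ubd. The count was 25 higher and 1 lower without WT CFA library 1, without WT CFA library 2 or without both, fits in which 6948, 6951 and 6967 of all genes were called. When the iKO libraries alone were fitted, 29 were higher and 1 lower, and 8309 of all genes were called, against 8 in the fit of all 8 libraries. The median was 0.70 without iKO vehicle library 2 and 1.98 without iKO vehicle library 1.

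In WT ganglia the same genes lay mostly below vehicle after CFA. The log2 fold change was negative for 40 of 43, with a median of -1.39 beside -0.028 over all genes. In edgeR's test 19 of 43 fell and 1, Ifi27, rose, where 8.71% of all genes tested were called lower and 8.12% higher. Those that fell were 8 of 9 guanylate-binding proteins, all 4 immunity-related GTPases, Mx2, Oas2, Irf1, Irf8, Ubd, Tap1 and Xaf1. Without WT vehicle library 1 the count of lower calls was 3 (Gbp4, Gbp8 and Mx2), and in the other fits that left out 1 library it was 14 to 27. The call of Ifi27 was lost in 10 of 14 alternative fits.

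**Figure D2:**
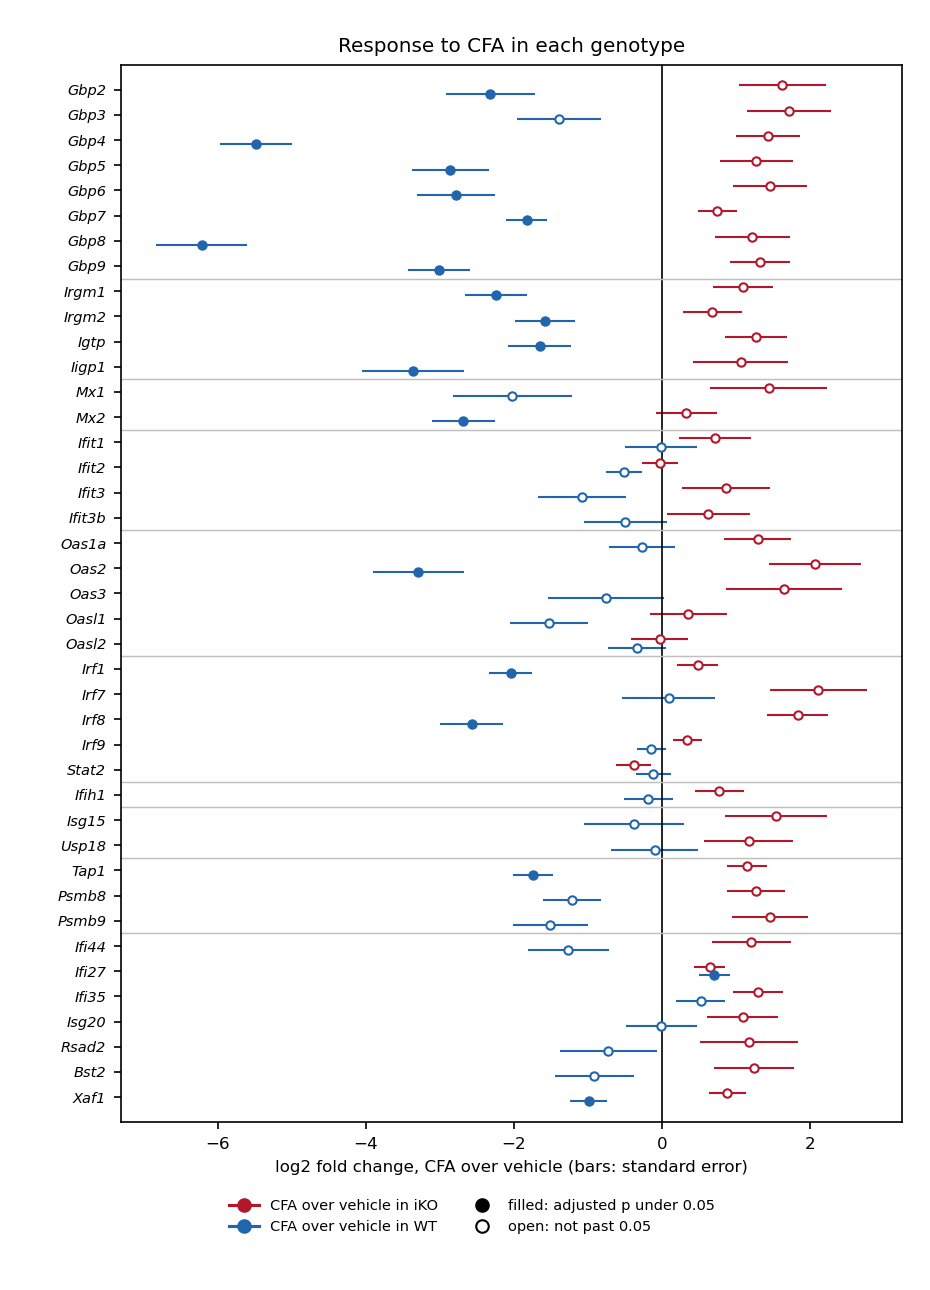
Points are log2 fold changes of CFA over vehicle with standard errors, in iKO (red) and in WT (blue), for 41 of the 43 genes; Gbp10 and Ubd are left out because their fitted changes rest on groups with 0 to 2 reads. Filled points passed an adjusted p of 0.05: blue filled points lie left of 0 except that of Ifi27, and no red point is filled.

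Under vehicle, iKO ganglia held less of these genes than WT ganglia. The log2 fold change was negative for 42 of 43, with a median of -1.71 beside 0.015 over all genes. In edgeR's test 21 of 43 were lower and 0 higher in iKO, where 9.33% of all genes tested were called lower and 8.28% higher. In this comparison 28 of the 43 had an unadjusted p under 0.05, beside 7047 of 20235 genes. DESeq2 called 26 of the 43 lower and 0 higher, and 5012 genes in either direction. Of the 19 genes that fell with CFA in WT, 18 were also lower in iKO under vehicle. Gbp2 missed with an adjusted p of 0.0504, and Gbp3, Psmb8 and Psmb9 were called here and not in the CFA comparison. Both comparisons share the WT vehicle libraries. The count was 8 without WT vehicle library 1 and 10 without iKO vehicle library 2.

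Under CFA, the 43 genes lay mostly above WT in iKO ganglia, and 1 was called. The log2 fold change was positive for 40 of 43, with a median of 0.80 beside -0.018 over all genes. In edgeR's test Gbp8 was higher and 0 were lower, where 1.50% of all genes tested were called higher and 0.208% lower. There were 12 of 43 at an unadjusted p under 0.05, beside 2967 of 20235 genes. DESeq2 called 6 higher (Gbp4, Gbp6, Gbp8, Gbp10, Irf8 and Tap1) and 0 lower, and 1169 genes in either direction. The call of Gbp8 was lost in 11 of 15 alternative fits. Without WT CFA library 2, the WT CFA library with more of these genes, 21 were higher and 1 lower, and without WT CFA library 1 the median was 0.35.

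**Figure D3:**
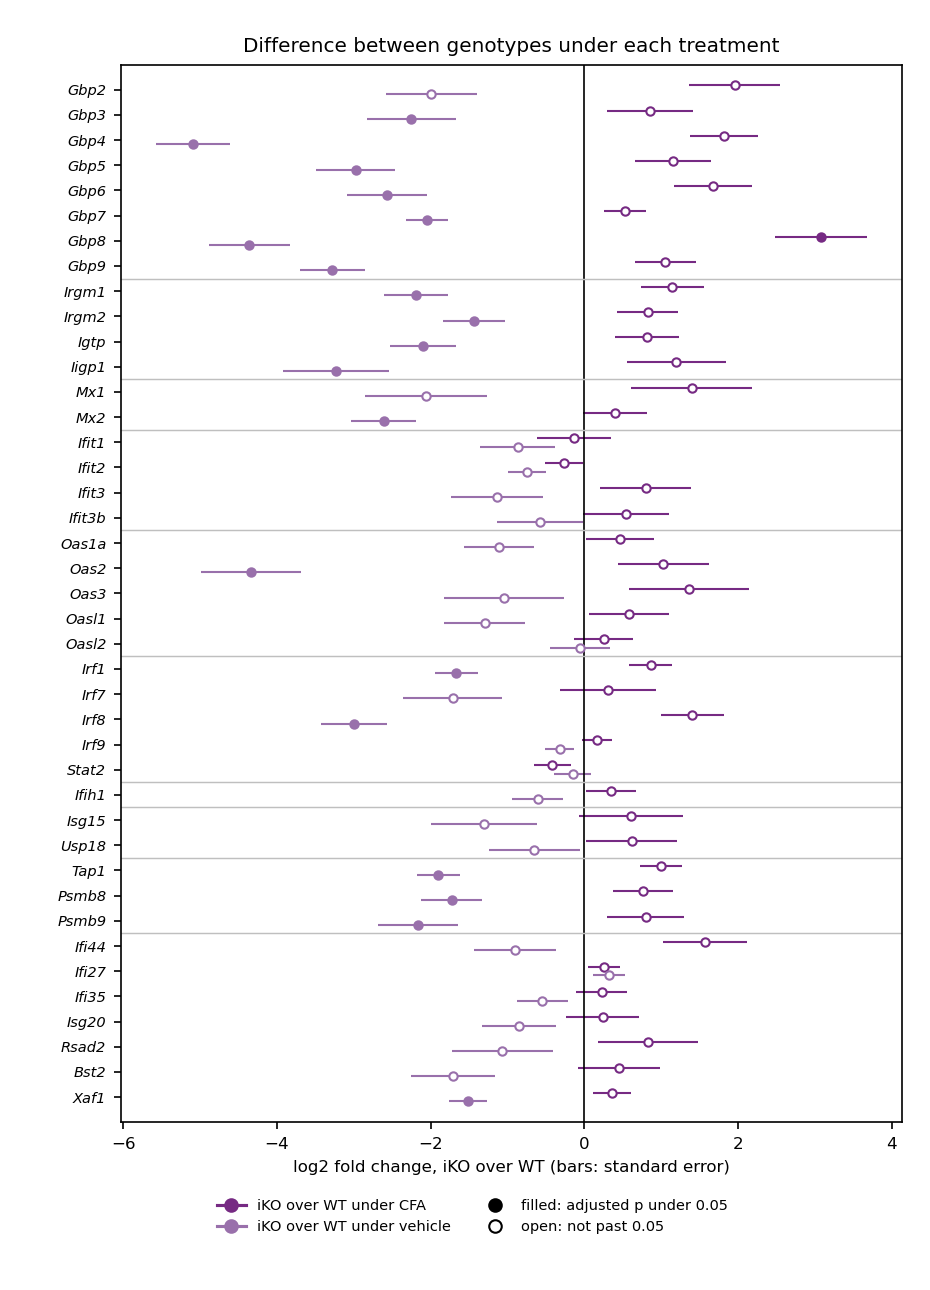
Points are log2 fold changes of iKO over WT with standard errors, under CFA (dark purple) and under vehicle (light purple), for 41 of the 43 genes, without Gbp10 and Ubd. Filled points passed an adjusted p of 0.05: the vehicle points of guanylate-binding proteins and immunity-related GTPases lie left of 0 and their CFA points right of 0, and Gbp8 is the one filled CFA point.

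The response to CFA differed between the genotypes for 22 of 43 genes. The difference, the CFA response in iKO minus the CFA response in WT, was tested as an interaction in the same model. All 22 were higher (more positive in iKO) and 0 were lower, where 6.19% of all genes tested were called higher and 3.17% lower. The median difference was 2.47 on the log2 scale beside -0.039 over all genes. In this comparison 28 of 43 had an unadjusted p under 0.05, beside 6277 of 20235 genes. DESeq2 called 25 of the 43 higher and 0 lower, and 3901 genes in either direction. The called genes were all 9 guanylate-binding proteins, all 4 immunity-related GTPases, all 3 antigen processing genes, Mx2, Oas2, Irf1, Irf8, Ubd and Xaf1. They include all 19 that fell with CFA in WT and all 21 lower in iKO under vehicle, and all 3 comparisons use the WT vehicle libraries. The count was 8 without WT vehicle library 1, 14 without WT vehicle library 2, 11 without iKO CFA library 2, 14 without iKO CFA library 1, 13 without iKO vehicle library 2 and 34 without WT CFA library 2. In every fit that left out 1 library, 6 remained called: Gbp4, Gbp8, Gbp9, Irf8, Ubd and Tap1.

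The guanylate-binding proteins are large GTPases that coat and break open the vacuoles of intracellular pathogens. Gbp2 was the most abundant of the 9 per kilobase of exon, with mean levels of 42.9 CPM per kilobase in iKO CFA and 13.9 in iKO vehicle ganglia, against 11.1 in WT CFA and 55.2 in WT vehicle ganglia. Its libraries held 97.4 and 118 CPM in iKO CFA ganglia and 53.6 and 16.3 CPM in iKO vehicle ganglia, against 14.4 and 41.3 CPM in WT CFA ganglia and 164 and 114 CPM in WT vehicle ganglia. The iKO CFA libraries of Gbp2 lay above both iKO vehicle and both WT CFA libraries and overlapped WT vehicle library 2. It fell with CFA in WT (-2.32 ± 0.60, adjusted p = 0.0335), and its difference in response was 3.95 ± 0.84 (adjusted p = 0.027). These calls of Gbp2 were kept in 8 of 14 and 8 of 13 alternative fits. Gbp4 held 4.37 and 7.15 CPM in iKO CFA ganglia and 3.02 and 1.23 CPM in iKO vehicle ganglia, against 1.66 and 1.61 CPM in WT CFA ganglia and 91.5 and 54.9 CPM in WT vehicle ganglia. Both WT vehicle libraries of Gbp4 were far above the other 6. With CFA in WT it changed by -5.48 ± 0.49 on the log2 scale (adjusted p = 0.000915), and it was lower in iKO than WT under vehicle (-5.09 ± 0.48, adjusted p = 0.000841).

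Gbp8 showed the same layout at a lower level. Its libraries held 1.45 and 2.001 CPM in iKO CFA ganglia and 0.784 and 0.689 CPM in iKO vehicle ganglia, against 0.0801 and 0.342 CPM in WT CFA ganglia and 19.5 and 10.9 CPM in WT vehicle ganglia. The WT CFA libraries were the lowest of the 8 and did not overlap those of any other group. Its CFA response was -6.22 ± 0.61 in WT (adjusted p = 0.00124), and it was higher in iKO than WT under CFA (3.08 ± 0.59, adjusted p = 0.0433). Gbp10 had 135 reads in both iKO CFA libraries together, against 2 in WT CFA, 64.6-fold more per scaled read (95% counting interval 17.5 to 539). The 2 WT CFA reads stood against 944 in WT vehicle ganglia, 496-fold fewer (137 to 4100). These intervals cover counting error only, and the fitted changes of Gbp10 depend on the prior count. Of its 50-base sequences in the GENCODE vM21 annotation (assembly GRCm38), 82.5% also occur in another gene, mainly Gm43302, and for Gbp6 59.7% do, so their counts are uncertain where reads could be split.

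The remaining guanylate-binding proteins had the same signs of change. With CFA in WT they ranged from -3.01 ± 0.42 for Gbp9 to -1.39 ± 0.56 for Gbp3, which alone of the 9 did not pass (adjusted p = 0.122). Under vehicle, iKO minus WT ranged from -5.09 for Gbp4 to -1.99 for Gbp2 among the 9. By annotation the family lies in 2 clusters. The 5 genes on chromosome 5 (Gbp4, Gbp6, Gbp8, Gbp9 and Gbp10) had a median CFA response of 1.43 in iKO and -5.48 in WT, and the 4 on chromosome 3 (Gbp2, Gbp3, Gbp5 and Gbp7) had medians of 1.45 in iKO and -2.08 in WT. Under vehicle the medians of iKO over WT were -4.36 on chromosome 5 and -2.15 on chromosome 3. The clusters were not tested against each other.

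**Figure D4:**
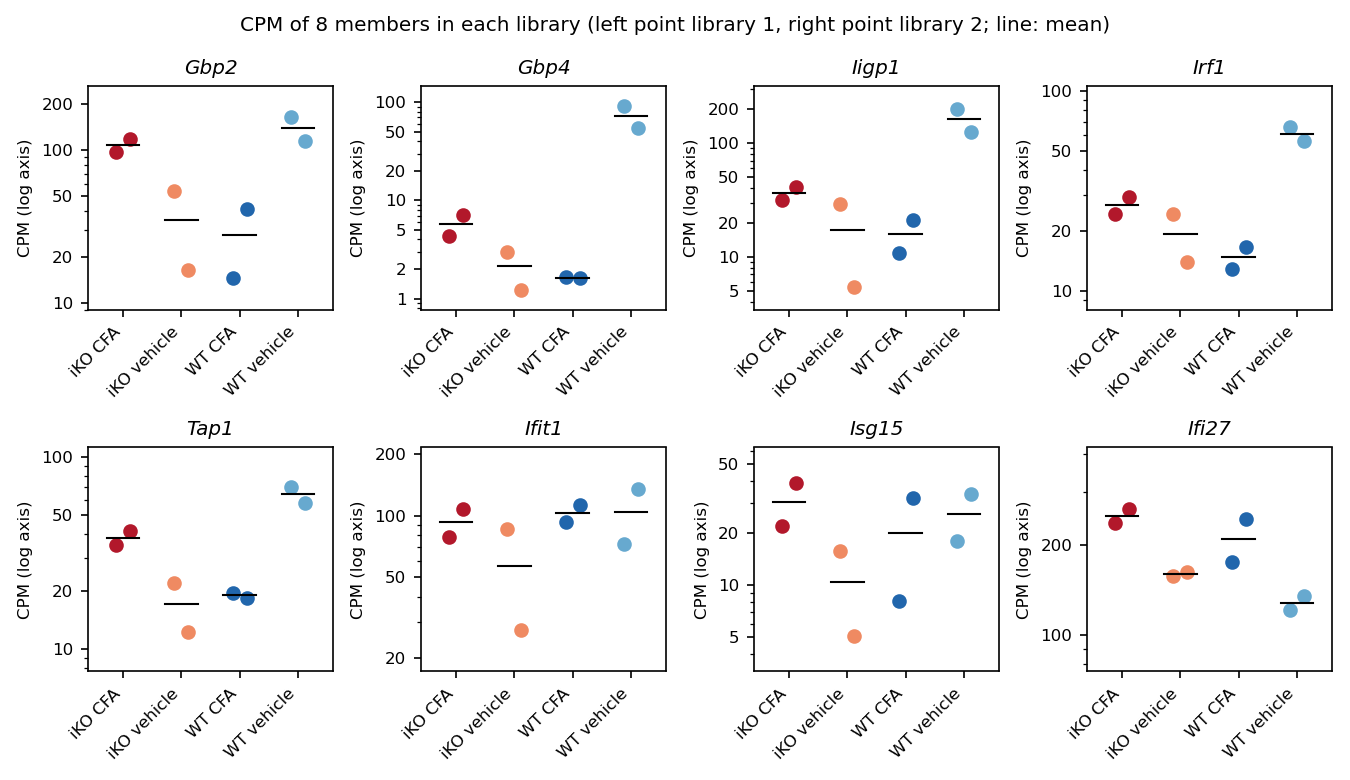
Points are the CPM of 8 of the genes in each library on log axes, left point library 1 and right point library 2, with a line at the group mean. Gbp2, Gbp4, Iigp1, Irf1 and Tap1 are highest in WT vehicle ganglia, Ifit1 and Isg15 overlap between most groups, and Ifi27 is lowest in WT vehicle ganglia.

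The immunity-related GTPases work with the guanylate-binding proteins at pathogen vacuoles in mice. All 4 fell with CFA in WT, all 4 were lower in iKO under vehicle, and all 4 differed in response. Iigp1 held 31.5 and 41.1 CPM in iKO CFA ganglia and 29.2 and 5.45 CPM in iKO vehicle ganglia, against 10.8 and 20.9 CPM in WT CFA ganglia and 199.7 and 127 CPM in WT vehicle ganglia. The 2 iKO vehicle libraries of Iigp1 were further apart, as a ratio, than those of the iKO CFA or WT vehicle group. Its response to CFA was 1.06 ± 0.64 in iKO (adjusted p = 0.299) and -3.36 ± 0.69 in WT (adjusted p = 0.0162). Igtp, the most abundant of the 4 per kilobase (73.7 CPM per kilobase in WT vehicle ganglia), held 74.3 and 93.2 CPM in iKO CFA ganglia and 51.0 and 18.3 CPM in iKO vehicle ganglia, against 43.3 and 51.7 CPM in WT CFA ganglia and 178 and 121 CPM in WT vehicle ganglia. The WT vehicle libraries of Igtp did not overlap any other group. Irgm1, a regulator that keeps the other immunity-related GTPases off host membranes, had a difference in response of 3.33 ± 0.58 (adjusted p = 0.0138). That of Irgm2 was 2.26 ± 0.57 (adjusted p = 0.0434), a call kept in 7 of 13 alternative fits.

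The IFIT genes, whose proteins bind viral RNA, passed the test in none of the 5 comparisons by edgeR. At an unadjusted p under 0.05 there was 1 of 4 under vehicle between genotypes, beside 7047 of 20235 genes. In the difference in response there was also 1 of 4, beside 6277 genes. There were 0 of 4 with CFA in WT, with CFA in iKO and between genotypes under CFA, beside 6780, 5791 and 2967 genes. A count of 1 of 4 is thus near the background. Ifit1 held 78.8 and 108 CPM in iKO CFA ganglia and 86.1 and 27.5 CPM in iKO vehicle ganglia, against 93.1 and 113 CPM in WT CFA ganglia and 72.6 and 135 CPM in WT vehicle ganglia. The ranges of the 4 groups overlapped, apart from iKO vehicle and WT CFA. Its response to CFA was 0.72 ± 0.49 in iKO (adjusted p = 0.353) and -0.01 ± 0.48 in WT (adjusted p = 0.988). Ifit3 had a difference in response of 1.94 ± 0.84 (adjusted p = 0.157), and 51.2% of its 50-base sequences are shared with Ifit3b.

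The OAS proteins make the signal that activates RNase L, except that some OAS-like members lack the enzyme activity. Of the 5, Oas2 alone passed, and it passed in 3 comparisons. Oas2 held 1.69 and 1.75 CPM in iKO CFA ganglia and 0.441 and 0.373 CPM in iKO vehicle ganglia, against 0.347 and 1.37 CPM in WT CFA ganglia and 5.93 and 10.7 CPM in WT vehicle ganglia. The WT vehicle libraries were the highest and the iKO CFA libraries came next, without overlap. It fell with CFA in WT (-3.29 ± 0.61, adjusted p = 0.0121), was lower in iKO under vehicle (-4.33 ± 0.65, adjusted p = 0.00494) and had a difference in response of 5.36 ± 0.87 (adjusted p = 0.0109). Oasl2, the most abundant of the 5 per kilobase, held 77.3 and 74.6 CPM in iKO CFA ganglia and 104 and 51.2 CPM in iKO vehicle ganglia, against 81.5 and 46.2 CPM in WT CFA ganglia and 61.0 and 100.5 CPM in WT vehicle ganglia, and its groups overlapped. For Oas1a, 57.6% of 50-base sequences are shared with Oas1g. Mx2, an antiviral dynamin-like GTPase, held 2.44 and 3.45 CPM in iKO CFA ganglia and 2.99 and 1.69 CPM in iKO vehicle ganglia, against 2.48 and 1.99 CPM in WT CFA ganglia and 9.92 and 18.9 CPM in WT vehicle ganglia. Only the WT vehicle group of Mx2 stood apart, and its fall with CFA in WT (-2.68 ± 0.43, adjusted p = 0.00713) kept its call in every alternative fit. Mx1 had a larger spread, with 0.775 and 5.51 CPM in WT CFA ganglia, and passed in no comparison (difference in response 3.46 ± 1.12, adjusted p = 0.0824).

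Of the transcription factors, Irf1 and Irf8 were called and Irf7, Irf9 and Stat2 were not. Irf1, an early target of interferon gamma, held 24.3 and 29.4 CPM in iKO CFA ganglia and 24.3 and 14.0 CPM in iKO vehicle ganglia, against 12.9 and 16.6 CPM in WT CFA ganglia and 65.95 and 55.9 CPM in WT vehicle ganglia. The WT vehicle libraries of Irf1 were above all others. It fell with CFA in WT (-2.05 ± 0.29, adjusted p = 0.00453), was lower in iKO under vehicle (-1.67 ± 0.28, adjusted p = 0.00765) and had a difference in response of 2.53 ± 0.40 (adjusted p = 0.00945). Irf8, a factor of macrophages, dendritic cells and B cells, held 12.1 and 13.4 CPM in iKO CFA ganglia and 4.78 and 2.35 CPM in iKO vehicle ganglia, against 3.15 and 6.54 CPM in WT CFA ganglia and 32.7 and 24.6 CPM in WT vehicle ganglia. Its iKO CFA libraries lay between the WT vehicle libraries and the other 4, with no overlap. The fall of Irf8 with CFA in WT passed (-2.57 ± 0.42, adjusted p = 0.00769), and it had a difference in response of 4.40 ± 0.59 (adjusted p = 0.00538). Irf7, which amplifies type I interferon production, held 33.1 and 45.9 CPM in iKO CFA ganglia and 13.04 and 5.22 CPM in iKO vehicle ganglia, against 14.2 and 49.7 CPM in WT CFA ganglia and 18.0 and 42.0 CPM in WT vehicle ganglia. The CFA response of Irf7 in iKO was 2.11 ± 0.65 (adjusted p = 0.105), and the WT libraries were wide apart. Irf9 and Stat2, which belong to the type I interferon factor complex, differed little between groups: Irf9 ranged from -0.32 to 0.34 and Stat2 from -0.42 to -0.12 over the 4 comparisons of single groups. Ifih1, which senses viral RNA, likewise passed in none, with 18.7 and 25.2 CPM in iKO CFA ganglia and 16.6 and 9.04 CPM in iKO vehicle ganglia, against 14.7 and 19.9 CPM in WT CFA ganglia and 16.4 and 22.9 CPM in WT vehicle ganglia.

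The antigen processing genes differed in response for all 3 members. Tap1, which carries peptides to MHC class I, held 34.9 and 41.3 CPM in iKO CFA ganglia and 22.0 and 12.3 CPM in iKO vehicle ganglia, against 19.7 and 18.6 CPM in WT CFA ganglia and 70.2 and 57.7 CPM in WT vehicle ganglia. The iKO CFA libraries of Tap1 stood above both iKO vehicle and both WT CFA libraries and below both WT vehicle libraries. Its response to CFA was 1.15 ± 0.27 in iKO (adjusted p = 0.0943) and -1.74 ± 0.28 in WT (adjusted p = 0.00686), and the difference was 2.90 ± 0.39 (adjusted p = 0.00538). Psmb8 and Psmb9, subunits of the immunoproteasome that cuts those peptides, were lower in iKO under vehicle (-1.73 ± 0.40 and -2.17 ± 0.52, adjusted p = 0.023 and 0.026). Their falls with CFA in WT did not pass (adjusted p = 0.0668 for Psmb8 and 0.0753 for Psmb9). Tap1 and Psmb9 are neighbours on chromosome 17 in the annotation, on opposite strands with overlapping promoter windows, and neither element was found in these windows.

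Ubd, a ubiquitin-like protein that marks proteins for degradation, was found mostly in the WT vehicle libraries. It had 25 reads in the iKO CFA libraries together and 0 in the iKO vehicle libraries. With 3 reads put in for the 0, the level was 9.05-fold higher after CFA, and the 95% counting interval started at 6.83-fold. The WT vehicle libraries held 714 reads. With the same 3 reads put in, the level in iKO vehicle ganglia was 284-fold lower than there, and the interval started at 230-fold. These intervals cover counting error only. In CPM, Ubd held 0.331 and 0.384 in iKO CFA ganglia, against 0.107 and 0.513 in WT CFA ganglia and 13.5 and 9.23 in WT vehicle ganglia. The iKO CFA and WT CFA libraries overlapped. Isg15, a ubiquitin-like modifier, and Usp18, the protease that removes it, passed in no comparison. Isg15 held 21.9 and 39.1 CPM in iKO CFA ganglia and 15.8 and 5.11 CPM in iKO vehicle ganglia, against 8.17 and 32.0 CPM in WT CFA ganglia and 18.1 and 33.8 CPM in WT vehicle ganglia. The iKO CFA libraries of Isg15 overlapped those of both WT groups, and the difference in response was 1.92 ± 0.97 (adjusted p = 0.21).

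Of the 7 other antiviral genes, Xaf1 and Ifi27 were called. Xaf1, a pro-apoptotic protein, held 21.0 and 25.4 CPM in iKO CFA ganglia and 15.4 and 9.82 CPM in iKO vehicle ganglia, against 16.1 and 20.2 CPM in WT CFA ganglia and 34.95 and 37.2 CPM in WT vehicle ganglia. Xaf1 fell with CFA in WT (-0.99 ± 0.25, adjusted p = 0.0304) and was lower in iKO under vehicle (-1.52 ± 0.25, adjusted p = 0.00713). Its difference in response was 1.87 ± 0.35 (adjusted p = 0.0178). These calls of Xaf1 were kept in 8 of 14, 13 of 15 and 8 of 13 alternative fits. Ifi27, the most abundant of the 43 per kilobase in iKO CFA, iKO vehicle and WT CFA ganglia, went the other way. It held 237 and 263 CPM in iKO CFA ganglia and 158 and 162 CPM in iKO vehicle ganglia, against 175 and 243 CPM in WT CFA ganglia and 122 and 135 CPM in WT vehicle ganglia. The WT vehicle libraries of Ifi27 were the lowest of the 8. It rose with CFA in WT (0.71 ± 0.21, adjusted p = 0.0469), its response in iKO was 0.64 ± 0.20 (adjusted p = 0.108), and the difference between the responses was -0.07 ± 0.29 (adjusted p = 0.901). Bst2, which tethers virus particles, held 51.1 and 63.7 CPM in iKO CFA ganglia and 36.4 and 12.1 CPM in iKO vehicle ganglia, against 22.5 and 61.6 CPM in WT CFA ganglia and 76.1 and 82.3 CPM in WT vehicle ganglia. Its difference in response did not pass (2.16 ± 0.76, adjusted p = 0.10), and Rsad2, Ifi44, Ifi35 and Isg20 passed in no comparison, with differences of 0.77 to 2.47.

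None of the interferon ligand genes listed for this report had a row in the files, and interferons are not analysed here. Of 15 receptor and signalling genes, 0 passed with CFA in iKO, and 5 fell and 1 rose with CFA in WT. In the same list 6 were lower in iKO under vehicle, 0 passed between genotypes under CFA, and 6 had a higher response in iKO. For this list and the 2 lists below, the shares of all genes tested were 8.71% lower and 8.12% higher with CFA in WT, 9.33% lower in iKO under vehicle and 6.19% with a higher response in iKO, so 1 gene that rose among 15 is near the background. Socs3, a feedback inhibitor of cytokine signalling, held 16.3 and 16.0 CPM in iKO CFA ganglia and 11.2 and 13.7 CPM in iKO vehicle ganglia, against 11.9 and 12.7 CPM in WT CFA ganglia and 102 and 94.8 CPM in WT vehicle ganglia. With CFA in WT it changed by -2.998 ± 0.19 (log2, adjusted p = 0.0002), and its WT vehicle libraries stood alone above the other 6. Ptpn2, a phosphatase acting on JAK and STAT proteins, changed by -1.94 ± 0.26 (adjusted p = 0.00418), and the kinases Jak2 and Tyk2 changed by -1.25 ± 0.19 and -1.04 ± 0.20 (adjusted p = 0.00618 and 0.0138). The receptor chain Ifngr2, which is named because it was the 1 that rose, after its values were seen, had a CFA response of 1.03 ± 0.22 in WT (adjusted p = 0.018). Of 17 nucleic acid sensors and their adaptors, 7 fell with CFA in WT, 9 were lower in iKO under vehicle and 5 had a higher response in iKO, with 0 called in the other 2 comparisons. They include Ikbke, an IRF-activating kinase (-4.41 ± 0.57 with CFA in WT, adjusted p = 0.00345), and Tlr8, an endosomal RNA receptor (-1.92 ± 0.35, adjusted p = 0.0112). Of 69 further interferon-induced genes tested, 34 fell and 1 rose with CFA in WT, 39 were lower in iKO under vehicle, 36 had a higher response in iKO, and 0 passed in the other 2 comparisons. Among these, Nlrc5, the activator of MHC class I genes, changed by -3.49 ± 0.43 with CFA in WT (adjusted p = 0.00286), and Samhd1, which depletes nucleotides, by -1.52 ± 0.17 (adjusted p = 0.00188). Lgals3bp, likewise named after its values were seen as the 1 that rose, had 0.86 ± 0.22 (adjusted p = 0.0314). For the 0 counts, 5 of 15, 6 of 17 and 36 of 69 had an unadjusted p under 0.05 with CFA in iKO, beside 5791 of 20235 genes, and 3, 4 and 23 between genotypes under CFA, beside 2967.

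Macrophage, NK cell, T cell and B and plasma cell markers were highest in WT vehicle ganglia, like many of these genes. Neutrophil markers differed from this, and so did the sum of the dendritic cell markers, though not their median. The 7 macrophage markers summed to 236 and 254 CPM in iKO CFA ganglia and 91.1 and 73.7 CPM in iKO vehicle ganglia, against 98.2 and 281 CPM in WT CFA ganglia and 388 and 289 CPM in WT vehicle ganglia. All 7 were lower in iKO under vehicle, 1 fell with CFA in WT and 5 had a higher response in iKO. The 4 NK cell markers summed to 4.37 and 3.78 CPM in iKO CFA ganglia and 0.833 and 0.316 CPM in iKO vehicle ganglia, against 0.454 and 1.34 CPM in WT CFA ganglia and 8.24 and 8.16 CPM in WT vehicle ganglia. Of these 4, 1 fell with CFA in WT, 2 were lower in iKO under vehicle and 2 had a higher response in iKO. Ncr1 was at 0 in iKO vehicle library 2 and WT CFA library 1, and Klrb1c in the first of these. Among 7 T cell markers, all 7 fell with CFA in WT and all 7 had a higher response in iKO, and 6 were lower in iKO under vehicle. Icos was at 0 in both iKO vehicle and both WT CFA libraries, and Ctla4 in 4 libraries. All 6 B and plasma cell markers fell with CFA in WT, 5 were lower in iKO under vehicle and 5 had a higher response in iKO, with Mzb1 at 0 in both WT CFA libraries. Between genotypes under CFA, 3 of the 6 B and plasma cell, 2 of the 7 T cell and 1 of the 4 NK cell markers were higher in iKO, where 1.50% of all genes tested were. For all marker lists here, the shares of all genes tested were 8.71% lower with CFA in WT and 9.33% lower in iKO under vehicle. For a higher response in iKO the share was 6.19%. A single marker of a list that fell with CFA in WT is thus near the background. The 4 neutrophil markers were not highest in WT vehicle ganglia, and none of them passed by edgeR in any comparison. All 4 had an unadjusted p under 0.05 with CFA in iKO, beside 5791 of 20235 genes. They summed to 879 and 880.5 CPM in iKO CFA ganglia and 52.6 and 36.9 CPM in iKO vehicle ganglia, against 12.5 and 157 CPM in WT CFA ganglia and 27.3 and 12.5 CPM in WT vehicle ganglia. The 4 dendritic cell markers summed to 14.6 and 15.1 CPM in iKO CFA ganglia and 24.4 and 22.8 CPM in iKO vehicle ganglia, against 22.6 and 15.2 CPM in WT CFA ganglia and 22.9 and 27.3 CPM in WT vehicle ganglia. Their sum was lowest in the iKO CFA libraries, while 2 of the 4 fell with CFA in WT, 3 were lower in iKO under vehicle and 2 had a higher response in iKO. The median log2 deviation of the 4 from their means over the 8 libraries was highest in WT vehicle ganglia, at 1.43 and 1.18. It was 0.0909 and 0.454 in iKO CFA, -0.913 and -1.34 in iKO vehicle and -0.884 and -0.175 in WT CFA ganglia. The 8 sensory neuron markers ran the other way, with 9613 and 9418 CPM in iKO CFA ganglia and 14040 and 14270 CPM in iKO vehicle ganglia, against 15200 and 10490 CPM in WT CFA ganglia and 6949 and 8852 CPM in WT vehicle ganglia. The part of these cell types in the changes of the 43 genes was not tested.

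**Figure D5:**
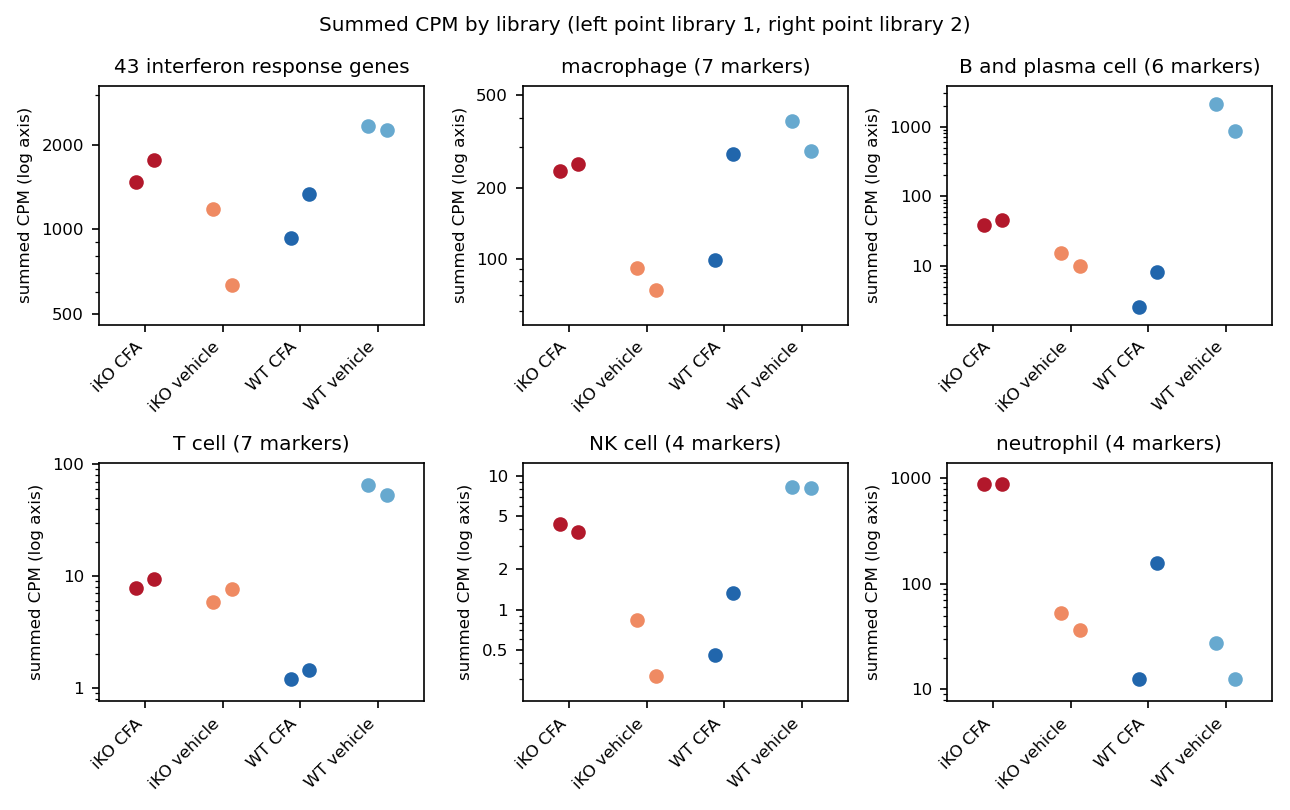
Points are summed CPM by library on log axes, left point library 1 and right point library 2, for the 43 genes and for 5 lists of immune cell markers. The 43 genes and the macrophage, B and plasma cell, T cell and NK cell markers are highest in WT vehicle ganglia, and the neutrophil markers in iKO CFA ganglia.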

How the data were processed

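RNA-seq counts of 8 libraries, 2 in each of 4 groups, were analysed, grouped by the genotype and treatment in the labels. The deposited values are counts: for each gene symbol, how many reads the authors assigned to it, with no normalization. Per the submitters' processing notes, reads were aligned with HISAT2 2.2.1 to GRCm39 (mm39), handled with SAMtools 1.19.2 and counted with featureCounts 2.0.6, and DESeq2 is named. Per the labels, total RNA came from frozen ganglia. The annotation and strand setting are not given in the sources used here, so sense and antisense reads, and reads of near-identical copies, could be mixed.

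From these counts, edgeR 4.0.16 in R 4.3.3 filtered genes (filterByExpr), scaled libraries (TMM) and fitted 1 quasi-likelihood model with 4 group means to all 8 libraries. Its common dispersion was 0.0753 and its prior degrees of freedom 4.68. Two-sided F-tests gave p-values, adjusted by Benjamini-Hochberg over 20235 genes with a threshold of 0.05. Errors of log2 fold changes are approximate standard errors, taken as the absolute log2 fold change divided by the square root of its F statistic. CPM use the scaled library sizes. Levels per kilobase use exon lengths, and shared 50-base sequences use transcripts, of GENCODE vM21 (GRCm38). Alternatives were DESeq2 1.42.0, RLE scaling, no filter, a replicate block, another quasi-likelihood setting, fewer groups, and each library left out.

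The 43 genes and all lists were chosen with earlier results of these data known. Any of the 43 could be named, and from each further list the 4 with the smallest p in a comparison. Marker genes are given by their levels.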

Additional observations from a re-analysis of the deposited data

Results flagged for a closer look

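For 22 of the 43 genes the response to CFA differed between iKO and WT by the interaction test, all with a more positive response in iKO. The differences, on the log2 scale, were 6.91 for Gbp4, 7.44 for Gbp8, 4.33 for Gbp9, 2.58 for Gbp7, 4.24 for Gbp6, 4.13 for Gbp5, 3.95 for Gbp2 and 3.10 for Gbp3 among the guanylate-binding proteins. They were 3.33 for Irgm1, 2.92 for Igtp, 4.43 for Iigp1 and 2.26 for Irgm2 among the immunity-related GTPases. They were 2.90 for Tap1 (2.895), 2.49 for Psmb8 and 2.97 for Psmb9 among the antigen processing genes. The remaining values were 4.40 for Irf8, 2.53 for Irf1, 5.36 for Oas2, 3.01 for Mx2 and 1.87 for Xaf1. The fitted values of 10.67 for Gbp10 and 11.88 for Ubd rest on groups with 2 and 0 reads and depend on the prior count. All 22 use the WT vehicle libraries, which stood apart in B and plasma cell and T cell markers, and the part of this in the differences was not tested.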

How the results depend on the processing

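Among the 43 genes, no call changed direction in any alternative. The number that rose with CFA in WT, 1 by the fit reported, was 0 under RLE scaling, with no filter on low counts, with the replicate block and with only the groups compared, and 0 to 2 with 1 library left out. The number that fell was 3 to 27 with 1 library left out. In iKO, 0 rose with CFA by the fit reported, and 18 did by DESeq2, 2 with no filter, 29 (and 1 lower) with only the iKO libraries, 25 (and 1 lower) without both WT CFA libraries, and 0 to 25 (0 to 1 lower) with 1 library left out. Under vehicle, 8 to 31 were lower and 0 to 1 higher in iKO with 1 library left out. Under CFA, 1 was higher in iKO, against 6 by DESeq2, 3 with no filter, and 0 under RLE scaling, the replicate block, legacy = FALSE, only the groups compared and without both WT vehicle libraries. With 1 library left out it was 0 to 21, with 0 to 1 lower. The difference in response had 8 to 34 higher and 0 to 1 lower with 1 library left out. A lone library was assumed to vary like the other groups. The cause of these changes was not tested.

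Over all genes, 3406 passed with CFA in WT, 754 with only the groups compared, and 259 to 7474 with 1 library left out. With CFA in iKO 8 passed, against 3364 by DESeq2, 510 with no filter, 181 with legacy = FALSE, 8309 with only the groups compared, 6967 without both WT CFA libraries, 0 without both WT vehicle libraries, and 0 to 6951 with 1 library left out. Between genotypes under vehicle 3564 passed, 8179 with only the groups compared, 8303 without both WT CFA libraries, and 394 to 8464 with 1 left out. Under CFA 345 passed, 1169 by DESeq2, 542 with legacy = FALSE, 33 with only the groups compared, 164 without both WT vehicle libraries, and 73 to 5819 with 1 left out. The difference in response had 1895, 3901 by DESeq2, and 228 to 8303 with 1 left out. DESeq2 put the median of all genes at -0.19 with CFA in WT, against -0.028 in edgeR, and the median of the 43 at -1.40 against -1.39. Where Gbp10 and Ubd rest on 0 to 2 reads, they lie on the outer side of the medians of the 43, also at their bounds.

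The differences of library 2 minus library 1 showed little correlation between groups, -0.144 to 0.028 over 20235 genes. Whether replicate numbers pair the libraries was not stated, and these correlations cannot settle it. With the replicate block, 17 of the 43 genes fell with CFA in WT, 19 were lower in iKO under vehicle and 18 had a higher response in iKO. Over all genes the block gave 0 with CFA in iKO, 207 between genotypes under CFA and 1062 for the difference in response. Depth limited Gbp8, Gbp10 and Ubd, with 0 to 2 reads in some groups of the last 2.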

Other observations

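A few further interferon-induced genes, chosen after their values were seen, showed the layout of the guanylate-binding proteins. Cxcl9, a chemokine induced by interferon gamma that draws T cells, held 12.5 and 19.4 CPM in iKO CFA ganglia and 7.97 and 0.517 CPM in iKO vehicle ganglia, against 0.427 and 8.32 CPM in WT CFA ganglia and 84.6 and 62.6 CPM in WT vehicle ganglia. Both WT vehicle libraries lay above the other 6, and the libraries within the iKO vehicle and WT CFA groups were more than an order of magnitude apart. Cxcl10, a related chemokine, held 11.7 and 13.9 CPM in iKO CFA ganglia and 10.1 and 1.38 CPM in iKO vehicle ganglia, against 2.03 and 5.37 CPM in WT CFA ganglia and 49.0 and 53.8 CPM in WT vehicle ganglia.

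A different layout was seen for Ifi27l2a, a paralogue of Ifi27. It held 97.7 and 101 CPM in iKO CFA ganglia and 17.6 and 9.44 CPM in iKO vehicle ganglia, against 23.4 and 91.2 CPM in WT CFA ganglia and 15.9 and 40.4 CPM in WT vehicle ganglia. The iKO CFA libraries were the highest of the 8, and the WT CFA libraries were far apart.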
